A study of Saccharomyces cerevisiae with 17 samples.

Results

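The genes described here encode the nuclear subunits of the respiratory chain of budding yeast (Saccharomyces cerevisiae). They were chosen by systematic name as the subunits of succinate dehydrogenase (complex II), the cytochrome bc1 complex (complex III), cytochrome oxidase and the ATP synthase, with both cytochrome c genes, the NADH dehydrogenase gene NDI1 and the ATPase inhibitor gene INH1. The list holds 40 genes, and 37 of them have a row among the 5326 gene rows of the deposited table. The other 3, COX7 of cytochrome oxidase, ATP16 of the ATP synthase and CYC7 of cytochrome c, have no row there and are not described further.

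RNA was sequenced from 4 genotypes of haploid MATa cells of the BY4741 background, all carrying the his3, leu2, met15 and ura3 mutations and grown to mid-log phase in YPD, a rich glucose medium, at 30 °C. The groups were wild type, deletion of SET2 (set2Δ), the histone H3 point mutation H3K36A and deletion of EAF3 (eaf3Δ), with 2 biological replicate libraries each. How cells carry H3K36A is not stated in the labels used here. Set2 methylates lysine 36 of histone H3, H3K36A puts alanine in place of that lysine, and Eaf3 is a chromodomain protein of the Rpd3S deacetylase and the NuA4 acetyltransferase that binds the methylated residue. The study asked how this methylation and Eaf3 bear on co-transcriptional spliceosome assembly.

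Respiratory chain subunits pass electrons from succinate and NADH through ubiquinone, complex III and cytochrome c to oxygen, and the proton gradient that results drives the ATP synthase. A few core subunits are encoded in mitochondrial DNA and most others in the nucleus. In yeast grown on glucose, respiration is repressed and many of the nuclear genes are transcribed below the level they reach on non-fermentable carbon, in part through low activity of the Hap complex, which binds CCAAT boxes and takes its activation domain from Hap4.

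Each value is a mean RPKM that the authors deposited for a genotype, a read number scaled to gene length and library size. No spread between replicates can be had from them, so no difference below was tested, and the depth behind a mean is unknown. All comparisons with wild type share its column. RPKM of a culture cannot tell fewer expressing cells from less RNA per cell. The median log2 ratio of all 5326 genes to wild type was -0.32 in set2Δ, -0.44 in H3K36A and -0.48 in eaf3Δ, so ratios are given as relative log2, the log2 ratio after adding 1 to each RPKM minus that median. A gene is called higher or lower at a relative log2 of at least 1 or at most -1, a 2-fold difference from the median gene. The altered genes SET2, EAF3, HHT1 and HHT2 have 0 rows as the table was used here, which leaves the genotypes unchecked on those genes. All 6 MATa-specific genes looked up had a row, and all 6 were lowest in eaf3Δ. The highest of them, the alpha-factor receptor gene STE2, had 418 RPKM in wild type and 179 in eaf3Δ, the protease gene BAR1 had 84.6 and 12.4, and the lowest, the a-factor gene MFA1, had 7.80 and 1.60. Of 4 MATalpha-specific genes SAG1 alone had a row, at 11.4 to 18.4 RPKM over the genotypes, above MFA1 in each.

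In wild type the 37 genes had a median RPKM of 83.7, against 23.0 over all genes, and 34 of them lay above that of the median gene. The level ran from 14.2 for COX5B to 682 for ATP2, which encodes the catalytic beta subunit of the ATP synthase. The order within each complex was uneven. In complex II, the membrane anchor gene SDH3 had 130 RPKM and the flavoprotein gene SDH1 22.6. In complex III the range was narrow, from 54.0 for RIP1, the Rieske iron-sulfur protein, to 117 for QCR7. In cytochrome oxidase it ran from COX5B to its isoform gene COX5A at 156, and in the ATP synthase from 44.0 for ATP20, a subunit of the dimer interface, to ATP2. Without replicate values it cannot be said which neighbours in this order differ. NDI1, which oxidizes NADH of the matrix in place of the complex I that this yeast lacks, was at 16.2.

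**Figure D1:**
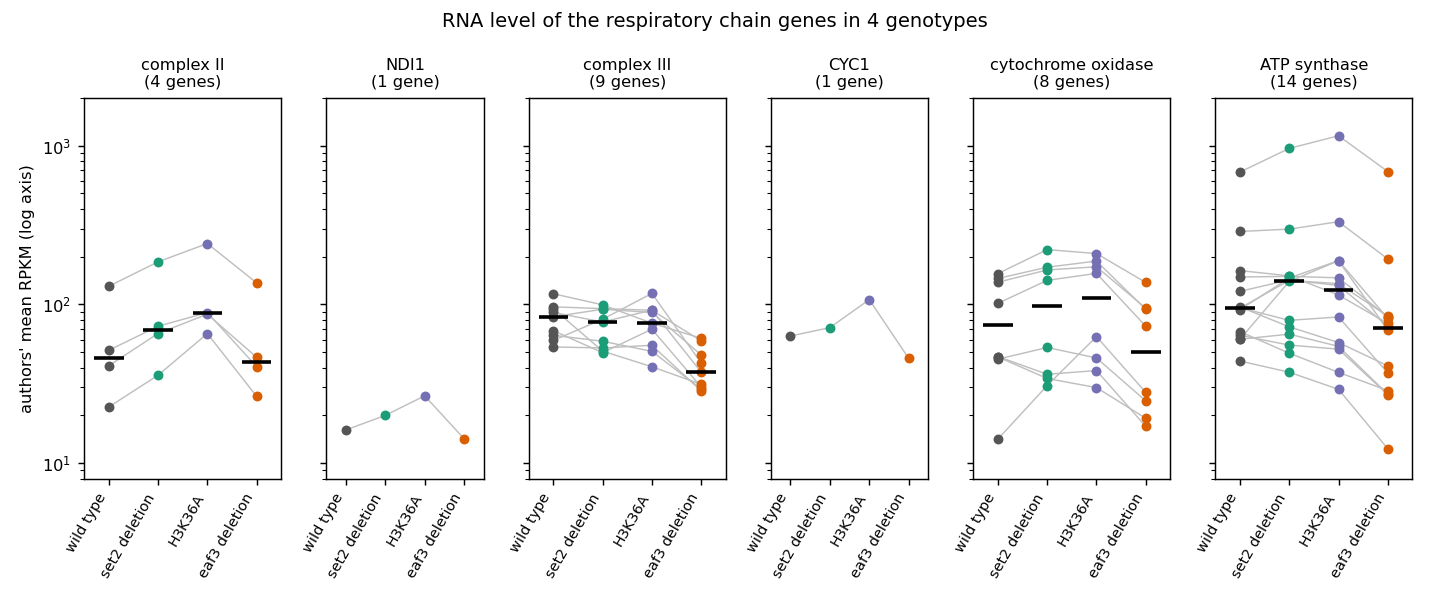
Authors' mean RPKM (log axis) of the 37 genes in wild type, set2Δ, H3K36A and eaf3Δ, by complex; each point is 1 gene, grey lines join the values of a gene and black bars are medians. In complex II the median goes from 46.2 in wild type to 87.8 in H3K36A and 43.5 in eaf3Δ, and in complex III from 83.7 to 76.3 and 37.5. Yet 3 of the 4 complex II genes were above wild type in eaf3Δ. The median log2 ratio of the 4 on the authors' scale was 0.12 there.

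Most respiratory genes had their lowest value in eaf3Δ, and the largest number had their highest in H3K36A. Of the 37, 31 were lowest in eaf3Δ on the authors' RPKM scale and 6 in wild type, where over all genes 40.4% were lowest in eaf3Δ and 13.8% in wild type. The highest value was that of H3K36A for 18 of the 37, of wild type for 12 and of set2Δ for 7, and for 0 that of eaf3Δ. Over all genes, wild type was highest for 67%, H3K36A for 20.7%, set2Δ for 7.4% and eaf3Δ for 4.88%. Summed over the 37 genes, RPKM came to 3825 for wild type, 4455 for set2Δ, 4911 for H3K36A and 2687 for eaf3Δ. ATP2 alone made up 682, 962, 1155 and 688 of these sums in the same order.

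In set2Δ, 2 of the 37 were at least 2-fold higher, COX5B and INH1, against 2.01% of all genes, and 0 were lower, against 3.77%. The median relative log2 was 0.47, with 31 above the median gene. In H3K36A, 12 of the 37 were at least 2-fold higher, which is 32.4% against 7.92% of all genes, and 0 were lower against 9.71%. The median was 0.53, with 30 above the median gene. In eaf3Δ, 1 was higher, or 2.70% against 3.98% of all genes, and 2 were lower, or 5.41% against 8.05%, so neither share was above that of all genes. The median there was -0.24, with 23 below the median gene. The choice of scale matters for these counts. On the authors' RPKM scale 5 of the 37 were at least 2-fold higher in H3K36A (3.15% of all genes) and 1 lower (23.5%), and in eaf3Δ 0 were higher (1.18%) and 13 lower (35.1% against 22.9% of all genes), while set2Δ had 2 higher (1.07%) and 0 lower (11.4%). There the 37 genes had medians of 0.16 in set2Δ, 0.09 in H3K36A and -0.72 in eaf3Δ, with 15, 14 and 31 of the 37 below wild type. Over all genes 77.3%, 72.8% and 81.0% were below it, so that the eaf3Δ count is near the share of all genes.

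Level and length are given beside these values. Of the 37 genes, 24 are in the top quartile of all genes by wild-type RPKM, and that quartile as a whole had a median relative log2 of 0.21 in set2Δ, 0.23 in H3K36A and 0.23 in eaf3Δ. By length, 28 are in the shortest quartile, whose medians were 0.07, 0.07 and 0.00. The part of level and length in the ratios to wild type was not tested. Among the 37 genes, Spearman's rho of the ratio with wild-type level was between -0.15 and -0.02 in these comparisons, and with length between -0.05 and 0.12, as a description over 37 genes that share the same libraries.

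**Figure D2:**
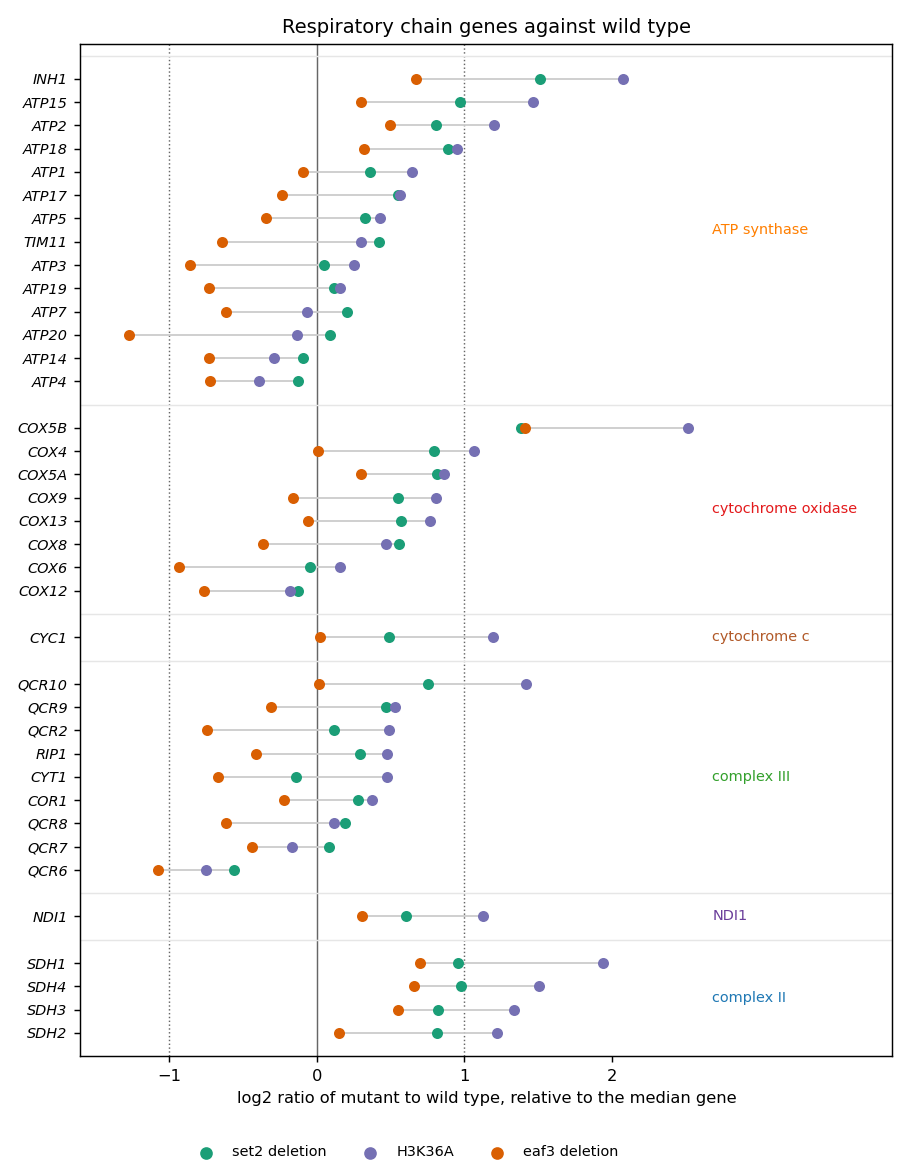
Log2 ratio of each mutant to wild type relative to the median gene (x axis) for each of the 37 genes, grouped by complex; green, purple and orange points are set2Δ, H3K36A and eaf3Δ, and dotted lines mark 2-fold. All 4 genes of complex II lie beyond 2-fold in H3K36A, COX5B lies farthest to the right at 2.51, and ATP20 farthest to the left at -1.27.

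Complex II had the highest median of the 4 complexes in each mutant. In H3K36A all 4 of its genes were past 2-fold on the relative scale (median 1.42), and on the authors' scale 2 were. SDH1, the flavoprotein that oxidizes succinate (YKL148C, chromosome XI 169207 to 171129, R64 assembly), had 22.6 RPKM in wild type, 35.8 in set2Δ, 65.5 in H3K36A and 26.4 in eaf3Δ. SDH2, the iron-sulfur subunit, had 51.4, 72.9, 88.9 and 40.6 in the same order. Both were highest in H3K36A, with set2Δ next, while in eaf3Δ SDH1 stood above wild type and SDH2 below it.

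The membrane anchors of complex II, which hold it in the inner membrane and take part in binding ubiquinone, did likewise. SDH3 had 130, 185, 242 and 137 RPKM in wild type, set2Δ, H3K36A and eaf3Δ, and SDH4 had 41.1, 65.6, 86.8 and 46.5. All 4 genes lay close together in set2Δ, between relative log2 0.81 and 0.98, just under the 2-fold line. In H3K36A they lay between 1.22 and 1.94, and in eaf3Δ between 0.15 and 0.70, where SDH2 turns to -0.33 on the authors' scale. On the authors' scale SDH1 and SDH4 were still at least 2-fold higher in H3K36A. NDI1, through which electrons of matrix NADH enter, had 16.2, 20.0, 26.6 and 14.2 RPKM, with relative log2 of 0.60, 1.13 and 0.31 in set2Δ, H3K36A and eaf3Δ, the last of which is -0.17 on the authors' scale.

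Complex III had no such common level. Its 9 genes had medians of 0.19 in set2Δ, 0.48 in H3K36A and -0.44 in eaf3Δ, and on the authors' scale the first of these was -0.12 and the second 0.03. All 9 were below wild type in RPKM in eaf3Δ, as were 81.0% of all genes. The core proteins COR1 and QCR2, which face the matrix, had 96.6 and 89.0 RPKM in wild type and 59.0 and 37.5 in eaf3Δ, with 92.0 and 92.1 in H3K36A. In RPKM the redox subunits were close to wild type in H3K36A and low in eaf3Δ. RIP1 had 54.0 in wild type, 53.2 in set2Δ, 55.3 in H3K36A and 28.6 in eaf3Δ, and CYT1, cytochrome c1, had 68.3, 49.7, 69.9 and 30.2. On the relative scale RIP1 and CYT1 were both at 0.48 in H3K36A.

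The extremes of complex III were small subunits. QCR6, the acidic subunit that contacts cytochrome c (YFR033C, chromosome VI 224326 to 224769), had 94.1 RPKM in wild type, 50.8 in set2Δ, 40.5 in H3K36A and 31.4 in eaf3Δ. It was the lowest of the 37 genes against wild type in set2Δ and in H3K36A, with relative log2 of -0.56 and -0.75, and it passed 2-fold in eaf3Δ at -1.07. QCR10 (YHR001W-A, chromosome VIII 107826 to 108122) had 59.4, 80.7, 117 and 42.7, a relative log2 of 1.42 in H3K36A. Of the others, QCR7 (117, 99.4, 76.3 and 61.2 RPKM) and QCR8 (63.9, 58.6, 50.6 and 29.3) were below wild type in RPKM in every mutant, and QCR9 in eaf3Δ, but on the relative scale QCR7 was at 0.09 in set2Δ and QCR8 at 0.19 in set2Δ and 0.11 in H3K36A. From wild type to the mutants the ratio of QCR6 to COR1 RNA went from 0.974 to 0.540, 0.441 and 0.532.

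CYC1, the gene of the main cytochrome c, had 63.2 RPKM in wild type, 71.4 in set2Δ, 107 in H3K36A and 45.7 in eaf3Δ. Its relative log2 of 1.20 in H3K36A was past 2-fold, and that of 0.02 in eaf3Δ, -0.46 on the authors' scale, placed it at the median gene.

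In cytochrome oxidase, the isoform gene COX5B stood apart. COX5A and COX5B encode alternative forms of one subunit. COX5A is the form of aerated cells, and COX5B, which is repressed by Rox1 in the presence of oxygen and haem, that of low oxygen. COX5B (YIL111W, chromosome IX 155222 to 155765) had 14.2 RPKM in wild type, 30.8 in set2Δ, 62.7 in H3K36A and 27.9 in eaf3Δ. It was the gene of the 37 with the highest ratio in H3K36A and eaf3Δ, with relative log2 of 2.51 and 1.41, and it passed 2-fold in set2Δ too, at 1.38. On the authors' scale its eaf3Δ ratio was 0.93, under 2-fold. In H3K36A 32 of all 5326 genes had a higher ratio. COX5A (YNL052W, chromosome XIV 531725 to 532186) had 156, 222, 209 and 138, relative log2 of 0.82, 0.86 and 0.30, the last of which is -0.19 on the authors' scale. COX5A was the more abundant form in every genotype, and the ratio of COX5B to COX5A RNA was 0.0906 in wild type, 0.139 in set2Δ, 0.300 in H3K36A and 0.203 in eaf3Δ.

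The other 6 cytochrome oxidase genes, which encode small subunits around the mitochondrially encoded core, formed a range. COX4 had 102, 142, 157 and 72.9 RPKM and was the one of them past 2-fold, at 1.07 in H3K36A. COX9 and COX13 followed it, with 146 and 138 in wild type, 188 and 173 in H3K36A and 93.1 and 94.7 in eaf3Δ. In RPKM COX8 was near its wild-type value in H3K36A (45.2 and 46.0), a relative log2 of 0.47. COX6 and COX12 had the low end, with 47.0 and 46.7 RPKM in wild type against 17.0 and 19.2 in eaf3Δ, relative log2 of -0.93 and -0.76. Over all 8 genes the median was 0.56 in set2Δ, 0.79 in H3K36A and -0.11 in eaf3Δ. On the authors' scale the medians were 0.25, 0.34 and -0.59. There 7 of the 8 were below wild type in eaf3Δ, as were 81.0% of all genes.

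**Figure D3:**
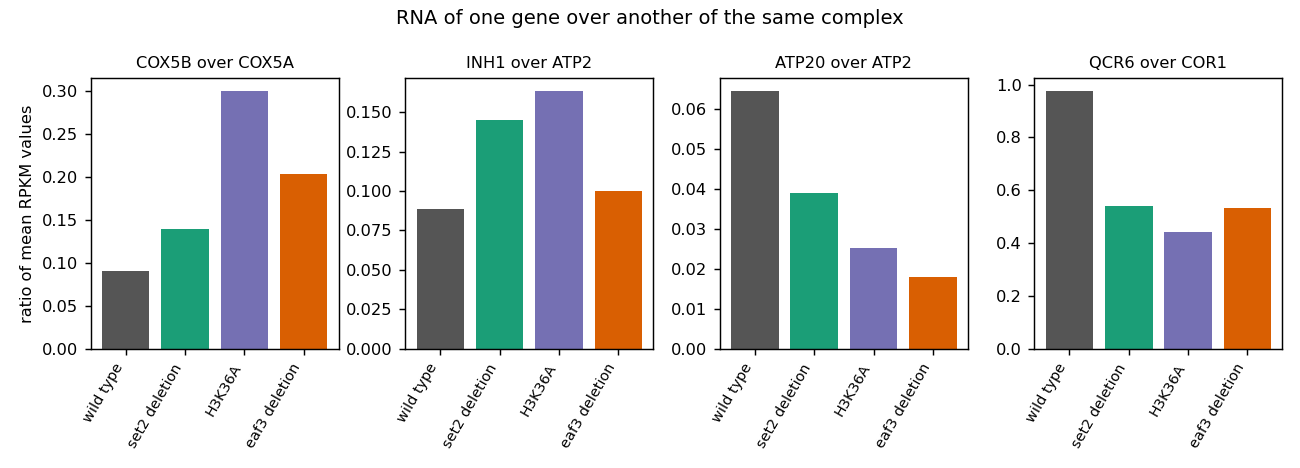
Ratio of mean RPKM values (y axis, from 0) of COX5B to COX5A, INH1 to ATP2, ATP20 to ATP2 and QCR6 to COR1 in each genotype; each bar is 1 ratio of the authors' means, with no error available. COX5B to COX5A is lowest in wild type (0.0906) and highest in H3K36A (0.300), and ATP20 to ATP2 goes from 0.0645 in wild type to 0.0179 in eaf3Δ.

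The medians of the ATP synthase as a whole include INH1. The catalytic head, F1, had 4 of its 5 genes in the table, and these had medians of 0.59 in set2Δ, 0.93 in H3K36A and 0.11 in eaf3Δ. The 9 genes of the membrane part and the peripheral stalk had medians of 0.21, 0.16 and -0.64. On the authors' scale the medians were 0.27, 0.48 and -0.38 for the head, and -0.11, -0.28 and -1.12 for the rest. This division was chosen after the values were known, and the difference was not tested. Against wild type single genes of the groups overlapped. ATP3 of the head lay among the values of the rest, and ATP18 of the rest among those of the head.

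Of the head, ATP2 had 682 RPKM in wild type, 962 in set2Δ, 1155 in H3K36A and 688 in eaf3Δ. ATP15, the epsilon subunit of the central stalk, had 92.7, 147, 189 and 81.7. Both passed 2-fold in H3K36A, at 1.20 and 1.46. ATP1, the alpha subunit that alternates with beta in equal number, had 288, 298, 332 and 193, so the ratio of ATP2 to ATP1 RNA was 2.37 in wild type and 3.23, 3.48 and 3.56 in set2Δ, H3K36A and eaf3Δ. Against wild type ATP3, the gamma subunit that forms the rotor shaft, went with the rest of the enzyme instead, at 95.5, 79.4, 83.4 and 37.0. From set2Δ to H3K36A the 4 head genes, ATP3 included, had relative log2 from 0.19 to 0.48. The 9 genes of the membrane part and stalk had -0.28 to 0.09 there.

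Of the membrane part and the stalk, ATP20 (YPR020W, chromosome XVI 599870 to 600217) had the lowest ratio of the 37 genes in eaf3Δ, with 44.0 RPKM in wild type, 37.4 in set2Δ, 29.2 in H3K36A and 12.3 in eaf3Δ, a relative log2 of -1.27. TIM11 and ATP19, which like ATP20 have a part in dimers of the enzyme, had 60.3 and 63.9 in wild type and 27.2 and 27.0 in eaf3Δ. The stalk genes ATP4, ATP7 and ATP14 were below wild type in RPKM in every mutant, but ATP7 was at 0.21 in set2Δ on the relative scale. ATP4 had 67.5, 49.3, 37.3 and 28.7, ATP7 had 163, 151, 115 and 75.9, and ATP14 had 96.5, 72.3, 57.5 and 41.0. ATP5, the stalk subunit that caps the head, kept near its wild-type RPKM of 149 in set2Δ (150) and H3K36A (147) and had 83.6 in eaf3Δ. Its relative log2 was 0.33 in set2Δ and 0.43 in H3K36A. The membrane subunit gene ATP17 had 121, 143, 132 and 73.1. Against wild type ATP18 was the exception, at 94.8, 142, 135 and 84.4, near the values of the head.

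INH1, the small protein that blocks ATP hydrolysis by the head when the proton gradient collapses (YDL181W, chromosome IV 135179 to 135436), had 60.3 RPKM in wild type, 140 in set2Δ, 189 in H3K36A and 68.9 in eaf3Δ. With relative log2 of 1.51 and 2.07 it was the highest of the 37 genes in set2Δ and second to COX5B in H3K36A. Its ratio to ATP2 RNA was 0.0884 in wild type, 0.145 in set2Δ and 0.163 in H3K36A, and in eaf3Δ it lay between those of wild type and set2Δ.

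The coding sequences of COX5B, QCR9 and QCR10 are interrupted by an intron, unlike those of most yeast genes. COX5B and QCR10 passed 2-fold in H3K36A, while QCR9 had 83.7 RPKM in wild type, 93.3 in set2Δ, 89.0 in H3K36A and 48.0 in eaf3Δ, a relative log2 of 0.53 in H3K36A. One RPKM per gene does not separate spliced from unspliced RNA, so these values do not measure splicing.

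The mutants were then set against each other directly, which does not involve the wild-type libraries. Cells lacking Eaf3 had a lower RPKM than H3K36A cells for 37 of 37 genes, against 56.9% of all genes, and a relative log2 below the median gene for all 37, with a median of -0.83 and a range from -1.39 to -0.27. Of these, 13 were at least 2-fold lower, against 2.29% of all genes, and 0 were higher, against 0.582%. On the authors' scale 14 were lower (2.53% of all genes) and 0 higher (0.563%). The highest of the 37, QCR7, had 21.1% of all genes below it. The lowest were INH1 (68.9 against 189 RPKM, -1.39), QCR10 (42.7 against 117, -1.39), SDH1 (26.4 against 65.5, -1.23) and QCR2 (37.5 against 92.1, -1.23).

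The difference was seen in every complex. The medians of this comparison were -0.95 for complex II, -0.83 for complex III, -0.89 for cytochrome oxidase and -0.78 for the ATP synthase, with CYC1 at -1.17 and NDI1 at -0.81. Those past 2-fold were 2 of 4, 3 of 9, 3 of 8 and 4 of 14, and CYC1. Level and length quartiles of all genes had medians between -0.08 and 0.04 in this comparison, and the quartiles that hold most of the 37 genes had 0.04 (highest wild-type level) and -0.07 (shortest). Among the 37, the genes with the higher wild-type level had the smaller deficit, with a Spearman's rho of 0.47 over 37 genes that share the same libraries, given as a description.

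**Figure D4:**
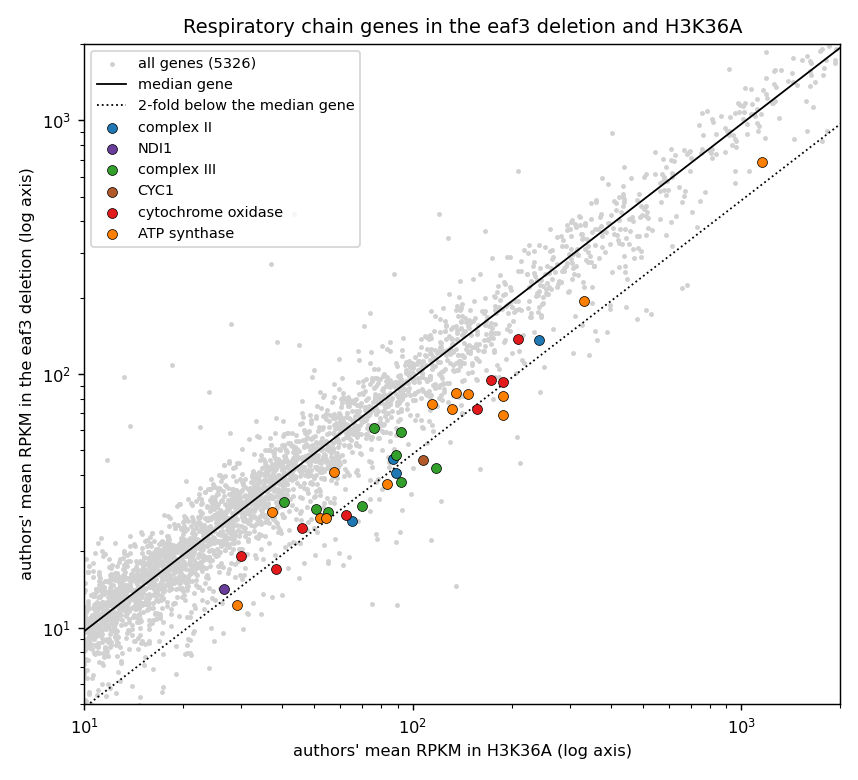
Authors' mean RPKM in eaf3Δ (y axis) against H3K36A (x axis), both log axes, for all 5326 genes (grey, those in the plotted range) and the 37 respiratory genes coloured by complex; the solid line is the median gene and the dotted line 2-fold below it, both drawn without the added 1. All 37 coloured points lie below the solid line, and 13 had a relative log2 of at most -1.

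The eaf3Δ values were below those of set2Δ for 37 of 37 genes on the RPKM scale, where 76.8% of all genes were. This comparison shares the eaf3Δ column with that against H3K36A, so it is not an independent repeat of it. The median relative log2 was -0.66, with 36 below the median gene and COX5B above it at 0.03, which is -0.14 on the authors' scale. There 2 were at least 2-fold lower, ATP20 (12.3 against 37.4 RPKM) and TIM11 (27.2 against 65.0), against 0.751% of all genes, and 0 were higher, against 0.526%. On the authors' scale 8 were lower (1.13% of all genes) and 0 higher (0.282%). Complex II was nearest to set2Δ, with a median of -0.30, and the ATP synthase farthest, with -0.73. Among the 37, the longer genes had the smaller deficit, with a Spearman's rho of 0.45 over 37 genes, as a description. Over all genes the shortest quartile had a median of -0.08 and the longest 0.03, and the part of length in the difference was not tested.

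H3K36A and set2Δ differed less. The median relative log2 of H3K36A to set2Δ was 0.18, and 1 of the 37, COX5B (62.7 against 30.8 RPKM), was at least 2-fold higher, against 2.31% of all genes, with 0 lower, against 0.507%. The authors' scale gave the same counts, 1 higher (1.88% of all genes) and 0 lower (1.01%). Complex II stood at 0.51 with all 4 genes above the median gene, led by SDH1 at 0.97, while the ATP synthase stood at 0.04, which is -0.07 on the authors' scale. The stalk genes ATP4 and ATP7 were lowest, at -0.27 and -0.28.

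Genes that work with the respiratory chain were looked up as lists. The 15 of 16 regulators with a row had 0 members at least 2-fold higher in any mutant, against 2.01% to 7.92% of all genes. HAP4 alone was at least 2-fold lower in H3K36A (9.71% of all genes) and in eaf3Δ (8.05%). On the authors' scale 2 regulators were lower in set2Δ, 5 in H3K36A and 2 in eaf3Δ, against 11.4%, 23.5% and 22.9% of all genes. HAP4, the activating subunit of the Hap complex, had 44.7 RPKM in wild type, 19.9 in set2Δ, 9.66 in H3K36A and 10.5 in eaf3Δ, relative log2 of -0.82, -1.66 and -1.50. Between eaf3Δ and H3K36A its relative log2 was 0.16. ROX1, the repressor of low-oxygen genes, had 35.3, 13.5, 16.8 and 18.3, and was past 2-fold in set2Δ at -1.01 (3.77% of all genes). HAP1, the haem-responsive activator of CYC1 and others, had 57.0, 42.7, 35.6 and 44.8.

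Assembly and expression factors lay nearer to the median gene than the subunits they serve. For cytochrome oxidase, 31 of 32 had a row, with medians of 0.10, 0.31 and 0.02 in set2Δ, H3K36A and eaf3Δ. In H3K36A 4 were at least 2-fold higher and 1 lower, against 7.92% and 9.71% of all genes (3 and 4 on the authors' scale, against 3.15% and 23.5%). The higher ones included COA3, an assembly factor that also acts in COX1 synthesis (49.0 RPKM in wild type, 119 in H3K36A), PET122, a translational activator of mitochondrial COX3 RNA (9.23 and 20.4), and COX15, which makes haem A (67.2 in H3K36A, relative log2 1.45). CMC1 was the lower one (10.8 and 3.12). In eaf3Δ 2 of these factors were higher, PET122 and COA3, against 3.98% of all genes, and 1 lower, CMC1, against 8.05%. The authors' scale gave 0 higher and 4 lower there, against 1.18% and 22.9%. The 17 of 19 factors of complexes II and III had medians of -0.06, 0.05 and -0.06 with 0 members past 2-fold in any mutant. Of all genes 2.01% to 7.92% were higher and 3.77% to 9.71% lower. On the authors' scale 1 factor was lower in H3K36A, against 23.5% of all genes, and 2 in eaf3Δ, against 22.9%. The 14 of 16 of the ATP synthase had -0.02, -0.05 and -0.15. Of these 1, FMC1, was at least 2-fold lower in H3K36A (5.46 and 1.14), against 9.71% of all genes. The authors' scale gave 3 lower there, against 23.5%.

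Of the 15 of 16 carriers and channels with a row, 7 were at least 2-fold higher in H3K36A, against 7.92% of all genes, and 0 lower, against 9.71%. The authors' scale gave 2 higher, against 3.15%, and 2 lower, against 23.5%. The 7 were POR1, PIC2, ODC1, AAC3, PET9, DIC1 and MIR1, the last at 1.00. Carrier medians were 0.28 in set2Δ, 0.78 in H3K36A and 0.48 in eaf3Δ. In eaf3Δ POR1 and DIC1 were higher, against 3.98% of all genes, and 0 lower, against 8.05%. There the authors' scale gave 1 higher and 2 lower, against 1.18% and 22.9%. In set2Δ POR1 alone was higher, against 2.01%, with 0 lower, against 3.77%. POR1, the main channel of the outer membrane, had 385 RPKM in wild type, 864 in set2Δ, 1754 in H3K36A and 826 in eaf3Δ. PET9, the main ADP/ATP carrier, had 361, 472, 614 and 319, and MIR1, the phosphate carrier, 320, 422, 471 and 288. PIC2, a copper and phosphate carrier, had 31.3, 39.4, 77.4 and 37.5. The pyruvate carrier subunit MPC2 was below wild type in every mutant, at 213, 143, 100 and 106. Coenzyme Q synthesis had 11 genes with medians of 0.22, 0.74 and 0.54. Of these, 2 were past 2-fold in H3K36A, COQ5 (71.9 and 125) and COQ4 (22.7 and 38.3), against 7.92% of all genes. Haem synthesis had 8 genes with medians of 0.41, 0.50 and 0.46. Here 1, the ferrochelatase gene HEM15, was past 2-fold in H3K36A (53.1 and 91.4), against the same 7.92%. In either list 0 genes were past 2-fold in any mutant on the authors' scale. There 1.07% to 3.15% of all genes were higher and 11.4% to 23.5% lower.

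Set beside the subunits in the comparison of eaf3Δ with H3K36A, the lists had medians of -0.24 (cytochrome oxidase factors), -0.05 (factors of complexes II and III), 0.13 (ATP synthase factors), -0.23 (coenzyme Q), -0.10 (haem), -0.10 (carriers) and 0.14 (regulators), against -0.83 for the 37 genes. Single genes of the lists lay among the values of the 37. Of the carriers, POR1 was at -1.04, the 1 past 2-fold (2.29% of all genes), PIC2 at -0.98, PET9 at -0.90 and MIR1 at -0.66. The carriers reached up to 0.79 for OAC1, with 5 of 15 above the median gene, DIC1 among them at 0.09. The ATP synthase factors ran from -0.94 to 0.44. The 5 other dehydrogenases that feed ubiquinone or cytochrome c had -0.69. Against wild type their medians were 0.15 in set2Δ, 0.46 in H3K36A and -0.31 in eaf3Δ. Of the 5, 1 was past 2-fold in H3K36A, CYB2 at 1.44, against 7.92% of all genes. Its RPKM was low (1.89 in wild type, 4.75 in H3K36A), and on the authors' scale 0 were higher, against 3.15%. Among these dehydrogenases GUT2, the glycerol phosphate dehydrogenase of the inner membrane, had 9.51 RPKM in eaf3Δ and 21.4 in H3K36A. It was the 1 at least 2-fold lower in eaf3Δ than in H3K36A, against 2.29% of all genes. NDE1, which oxidizes cytosolic NADH, had 115 and 192. The difference between the subunits and these lists was not tested. The 8 mitochondrially encoded genes looked up have 0 rows as used here, so the core subunits could not be set beside the nuclear ones.

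**Figure D5:**
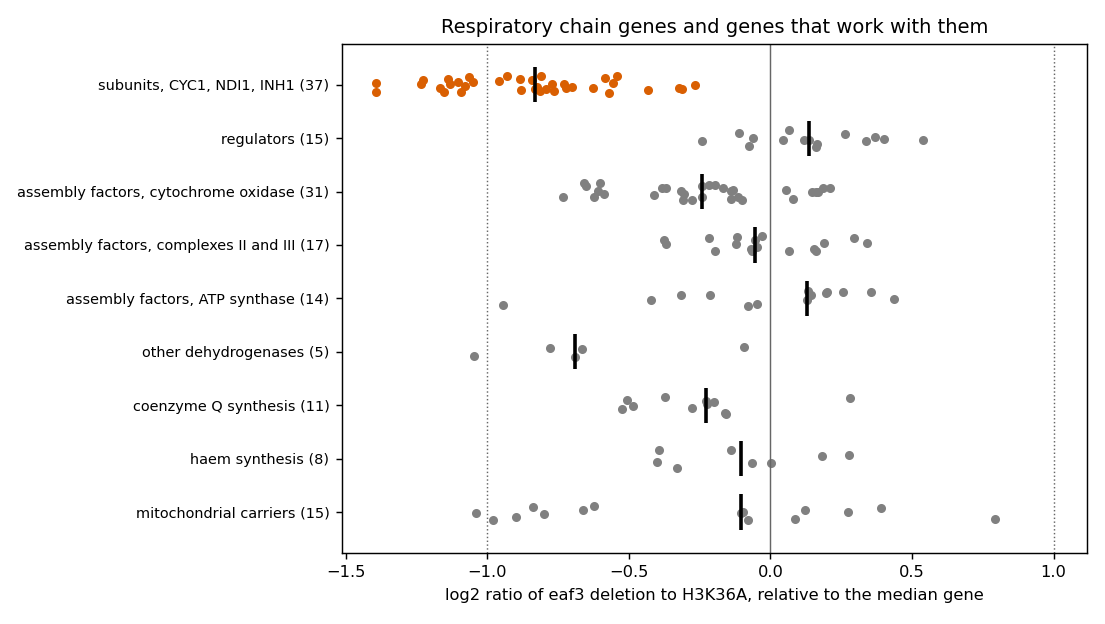
Log2 ratio of eaf3Δ to H3K36A relative to the median gene (x axis) for the 37 respiratory genes (orange) and for lists of genes that work with them (grey); each point is 1 gene, black bars are list medians, dotted lines mark 2-fold and vertical scatter within a list has no meaning. The orange points lie between -1.39 and -0.27, and the list medians other than that of the dehydrogenases (-0.69) lie between -0.24 and 0.14.

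Of the 37 genes, 0 overlap another RefSeq gene, and 0 share all 4 values with another row. The open reading frame YLR294C, which has no RefSeq entry and whose name places it beside ATP14, had 64.5, 50.5, 40.1 and 28.1 RPKM in wild type, set2Δ, H3K36A and eaf3Δ, which is the order seen for ATP14. YGR182C, named as the neighbour of QCR9, had 11.5, 7.95, 9.12 and 4.78, and differed in order from QCR9, which was highest in set2Δ. Whether the rows share reads was not tested.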

How the data were processed

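Libraries were stranded and made from DNase-treated total RNA after rRNA depletion (labels' protocols). CASAVA, TopHat2 2.0.14 and sacCer3 are named in the submitters' processing notes. The authors deposited 1 table of RPKM, with 1 column per genotype that is an average per the file headers; for RPKM, neither the program, the annotation, strand handling nor depth was found, being not given in sources used here. The lowest value is 1.00, and 3 lines were emptied for this work. Of 5328 rows, 2 named R name no gene (0.00317% of summed wild-type RPKM) and stayed out. RefSeq names and coordinates (R64) matched 5128 of 5326 rows by systematic name.

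Ratios were log2((a + 1)/(b + 1)) minus the median over all rows, with calls at 2-fold and no filter, in Python 3.11.15 with pandas 2.3.3 and numpy 2.4.6. The code was tested on simulated data. The planned limma fit needed a column per library and was not made, so there are no p-values. The alternatives tried were 0.1 or 5 as pseudocount, a minimum of 10 on mean or wild-type RPKM, the authors' scale and quantile normalization. Named genes were members past 2-fold in any mutant, isoform pairs, genes with an intron and the extremes of each complex, and up to 4 genes past 2-fold per other list. HAP1, PET9, MIR1, ODC1, AAC3, DIC1, OAC1, MPC2, GUT2, NDE1 and the other values within complexes were added after their values were seen. Members, lists and scale were chosen with earlier results of these data known. The 9 DNA libraries were not analysed here. No table of sequences was used here.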

Additional observations from a re-analysis of the deposited data

How the results depend on the processing

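On the authors' RPKM scale, without centring on the median gene, the count of members at least 2-fold higher in H3K36A was 5 against 12, and the count lower was 1 against 0. In the eaf3 deletion the count higher was 0 against 1 and the count lower 13 against 2. This setting adds the shift of the median gene back to every ratio. Under the other 5 alternatives (pseudocount of 0.1 or 5, mean or wild-type RPKM of at least 10, quantile normalization) these 4 counts and those of the set2 deletion stayed within 1.5 times: 8 to 12 higher and 0 lower in H3K36A, 1 higher and 2 to 3 lower in the eaf3 deletion, and 2 to 3 higher and 0 lower in the set2 deletion. Set against H3K36A, eaf3Δ had 11 to 14 members past 2-fold on the lower side over all 6 alternatives, and the median stayed between -0.88 and -0.79. No ratio that was itself past 2-fold changed sign under any alternative. Smaller ratios did, such as those of COX4, CYC1 and QCR10 in eaf3Δ against wild type, under 5 of the 6. No paired analysis was possible because the table has 1 averaged column per genotype, and for the same reason no replicate could be left out. The unknown depth limits genes of low RPKM most, COX5B and NDI1 among the members.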
